A study of Mus musculus with 4 samples.

Results

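The 84 genes described here encode nuclear subunits of the 4 respiratory chain complexes and of the ATP synthase, complex V. They are the genes whose symbol, found through the accession of a non-control array probe in RefSeq, begins with Ndufa, Ndufb, Ndufc, Ndufs or Ndufv (complex I, without the Ndufaf assembly factors), is Sdha, Sdhb, Sdhc or Sdhd (complex II), or begins with Uqcr (complex III), Cox4 to Cox8 (complex IV) or Atp5 (complex V). They stand among 18353 named genes with a probe. Each gene is represented by 1 of its probes, that with the highest mean over the 4 arrays. Expression was measured in total RNA of endothelial cells isolated from adult mouse hearts, on 1 Agilent 1-colour array per sample. The samples were 2 control samples, labelled wild type, and 2 samples labelled G2-EC-KO, also called a Gata2 knock out. Strain, age, sex, the allele and the promoter that drives the deletion are not given in the sources used here, nor is it said that the samples came from separate animals. A p-value here thus sets the difference of the groups against the spread between replicates, moderated over all probes, and that spread may be technical.

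Complex I takes electrons from NADH and complex II takes them from succinate, both passing them to ubiquinone. Complex III hands them on to cytochrome c and complex IV to oxygen, and complexes I, III and IV pump protons across the inner mitochondrial membrane. Complex V, the ATP synthase, uses that gradient to make ATP. Most subunits are encoded in the nucleus, while a small catalytic set is encoded in mitochondrial DNA. Cardiomyocytes are packed with mitochondria, whereas endothelial cells hold few and make much of their ATP by glycolysis. For some complex IV subunits a heart and skeletal muscle isoform exists beside a widely expressed one.

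The upstream sequences of 5 members are shown because results below turn on them: Sdha as the member with the lowest change, Atp5e as the single member with an unadjusted p under 0.05, and Cox6a1, Cox7a1 and Cox8b as widely expressed and heart type isoforms of complex IV. Each holds the 250 bases before the RefSeq start, 5′ to 3′ on the strand of the gene, from RefSeq on GRCm38.p6. Capitals mark matches to the letters of NRF1 and ETS motifs given after the sequences.
Sdha, chr13:74350241-74350490, minus strand: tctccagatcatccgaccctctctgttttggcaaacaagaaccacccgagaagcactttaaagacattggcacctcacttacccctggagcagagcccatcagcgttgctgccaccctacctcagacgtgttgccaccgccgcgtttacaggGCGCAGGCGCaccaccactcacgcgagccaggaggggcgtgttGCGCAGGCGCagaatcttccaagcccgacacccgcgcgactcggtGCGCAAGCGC
Atp5e, chr2:174464102-174464351, minus strand: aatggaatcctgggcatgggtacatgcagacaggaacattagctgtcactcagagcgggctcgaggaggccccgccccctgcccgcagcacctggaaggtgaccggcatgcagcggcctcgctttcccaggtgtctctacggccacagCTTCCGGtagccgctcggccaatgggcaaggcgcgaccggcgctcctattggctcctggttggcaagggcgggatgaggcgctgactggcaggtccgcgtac
Cox6a1, chr5:115348959-115349208, minus strand: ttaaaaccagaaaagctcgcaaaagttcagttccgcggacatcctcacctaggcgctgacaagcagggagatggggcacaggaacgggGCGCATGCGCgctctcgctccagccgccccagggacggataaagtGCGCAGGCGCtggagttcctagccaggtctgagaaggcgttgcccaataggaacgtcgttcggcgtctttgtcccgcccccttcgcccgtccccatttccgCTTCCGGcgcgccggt
Cox7a1, chr7:30183921-30184170, plus strand: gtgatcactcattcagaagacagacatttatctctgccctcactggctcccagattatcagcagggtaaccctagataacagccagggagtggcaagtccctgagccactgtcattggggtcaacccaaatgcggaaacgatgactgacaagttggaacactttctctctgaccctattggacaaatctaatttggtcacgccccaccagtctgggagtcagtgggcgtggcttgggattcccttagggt
Cox8b, chr7:140900447-140900696, minus strand: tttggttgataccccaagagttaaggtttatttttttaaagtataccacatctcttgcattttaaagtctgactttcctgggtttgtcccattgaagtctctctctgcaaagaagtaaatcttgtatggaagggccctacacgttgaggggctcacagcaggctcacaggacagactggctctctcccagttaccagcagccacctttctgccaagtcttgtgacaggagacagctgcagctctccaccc

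Motifs of 5 transcription factor classes were searched as exact letters, with N for any base, on both strands of these 250 bases. An entry was found for 68 of the 82 members tested. The NRF1 motif, whose letters are the longer runs of capitals in Sdha and Cox6a1, belongs to a regulator of nuclear genes for mitochondria. It stood in 12 of the 68 (17.6%) and in 3.86% of 27025 promoters of all genes. The count was 3 in Sdha and in Ndufb4, 2 in Cox6a1 and 0 in Cox7a1 and Cox8b. It was also 0 in Cox7a2 and Cox8a, the widely expressed partners of Cox7a1 and Cox8b. Cox6a2, the heart type partner of Cox6a1, had no entry, so the motif does not separate the isoform classes here. CCGGAAG, letters bound by ETS factors such as GABP, stood in 11 (16.2%, against 7.05% of all), among them Atp5e and Cox6a1. AAGATGGC, the YY1 letters, and AGATAAG, the GATA letters, were in 0 members, against 1.59% and 2.78% of all promoters. At shares this low few matches would stand among 68 promoters, so the 0 shows no depletion. AGATAAG is also a single exact form. The Cox7a1 sequence shown holds the letters agataac, which the search does not count, so the 0 does not mean that GATA sites are absent. The motif of MEF2, a muscle transcription factor, was in 1 member, Cox5b (1.47%, against 3.23%). These motifs do not overlap one another in the sequences shown. A match describes letters in this window and no binding was measured.

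Of the 84 members, 82 were well above background on all 4 arrays and could be tested, 37 in complex I, 4 in complex II, 8 in complex III, 16 in complex IV and 17 in complex V. The remaining pair, the testis isoforms Cox7b2 and Cox8c, were well above background on 0 arrays. The protein-coding genes Ndufa4l2, Ndufb1, Ndufb4b and Ndufb4c fall under the same names and had no probe matched to them. No probe was matched to any of the 13 subunits encoded in mitochondrial DNA, which were not analysed here. For 10 of the tested members, such as Uqcrh, Atp5k and Ndufa12, RefSeq names pseudogene copies. Probe sequences were not used here, so signal from such copies was not separated.

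The arrays share 1 slide and 1 scan, where control took positions 1 and 2 and G2-EC-KO took 3 and 4, so that position and group cannot be told apart. Between 63.8% and 66.5% of the probes were well above background. Gata2, at its brighter probe A_51_P516625, read 1.86 and 2.17 in control and 2.17 and 2.46 in G2-EC-KO (log2 change 0.29, SE 0.18; limma, adjusted p = 0.586). All levels are log2 of the processed signal minus the 75th percentile of the array. Its level was not lower in the libraries labelled G2-EC-KO. The deleted part of the gene and the place of the probe are not given in the sources used here, so that this value does not check the labels. All directions below rest on the labels. Of 20 endothelial markers, such as Pecam1 and Cdh5, 20 were well above background on all 4 arrays, and their summed linear signal, in units of the 75th percentile, was 1250 and 1340 in control and 1300 and 1340 in G2-EC-KO.

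No member passed the adjusted threshold: 0 of 82 were called higher or lower (limma, Benjamini-Hochberg over 26893 probes, smallest adjusted p = 0.405), where 0.00372% of all probes were called higher and 0% lower. At an unadjusted p under 0.05, 1 member was higher and 0 were lower, against 4.9% and 4.73% of all probes and 6.13% and 2.06% of named genes. With an intensity trend in the variance model, 13 members (15.9%) were higher at that p, against 5.67% of all probes and 7.76% of named genes, so this count depends on the variance model. Without G2-EC-KO replicate 1 it was 10 (12.2%), against 9.83% and 11.7%. The changes were small and lay mostly on one side. In G2-EC-KO, 72 of the 82 members read higher and 10 lower. Their median log2 change was 0.17, or 1.13-fold. The median was -0.0020 over all probes tested, 0.041 over 13628 named genes at 1 probe each, and 0.037 over the 3199 of these with a mean level of at least 1.93. The share with a log2 change above 0 was 49.6%, 58.1% and 58.9% in these sets. Both G2-EC-KO arrays lay above both control arrays for 53 members (64.6%), against 23.8% of all probes, 30.4% of named genes and 32.9% of the brighter named genes. The reverse order held for 1 member, Atp5a1 (22.6% of all probes, 16.7% of named genes). The median SE of a member's log2 change was 0.12, and 67 of the 82 changes lay within 2 SE of 0. Genes of 1 array vary together, so the members are not separate observations of a difference.

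**Figure D1:**
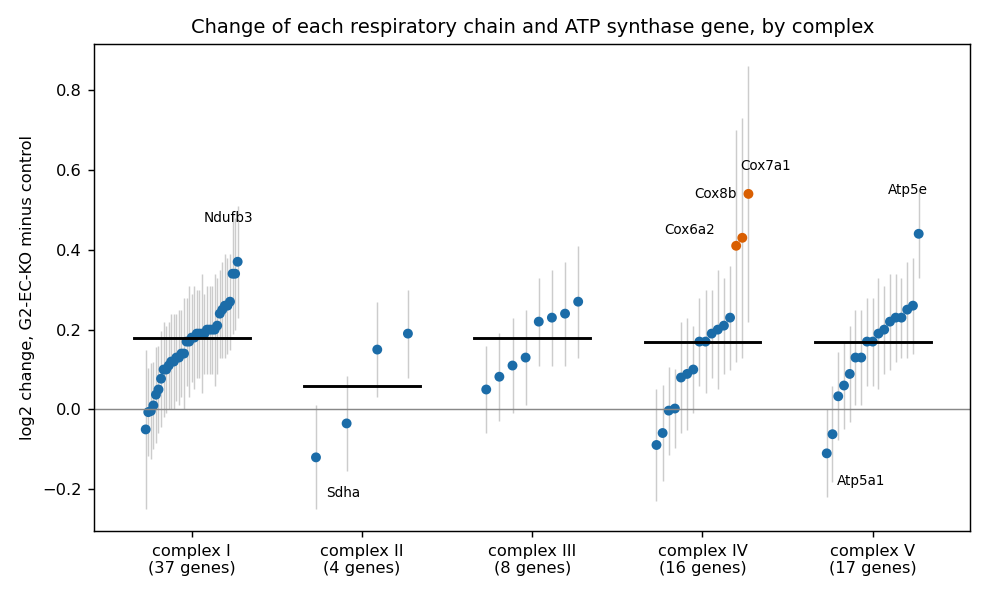
Log2 change (G2-EC-KO minus control) of each of the 82 tested genes, by complex. Points are genes, grey bars the SE from limma and black lines the median of the complex; orange marks Cox6a2, Cox7a1 and Cox8b. Medians are 0.18, 0.058, 0.18, 0.17 and 0.17 for complexes I to V.

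The arrays did not split evenly by group. Relative to the mean of each gene over the 4 arrays, the median member stood at -0.12 on control replicate 1, -0.049 on control replicate 2, 0.031 on G2-EC-KO replicate 1 and 0.13 on G2-EC-KO replicate 2. G2-EC-KO replicate 2 gave the highest value for 64 of the 82 members, and control replicate 1 the lowest for 62. The gap between the lower G2-EC-KO and the higher control array was 0.080, and the SD between replicates was 0.0607. The nearest arrays of the groups thus stood apart by little more than that SD. This gap lies between single arrays and is not the difference of the group means. The median change was 0.12 without G2-EC-KO replicate 2 and 0.13 without control replicate 1. It was 0.20 without control replicate 2 and 0.21 without G2-EC-KO replicate 1.

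**Figure D2:**
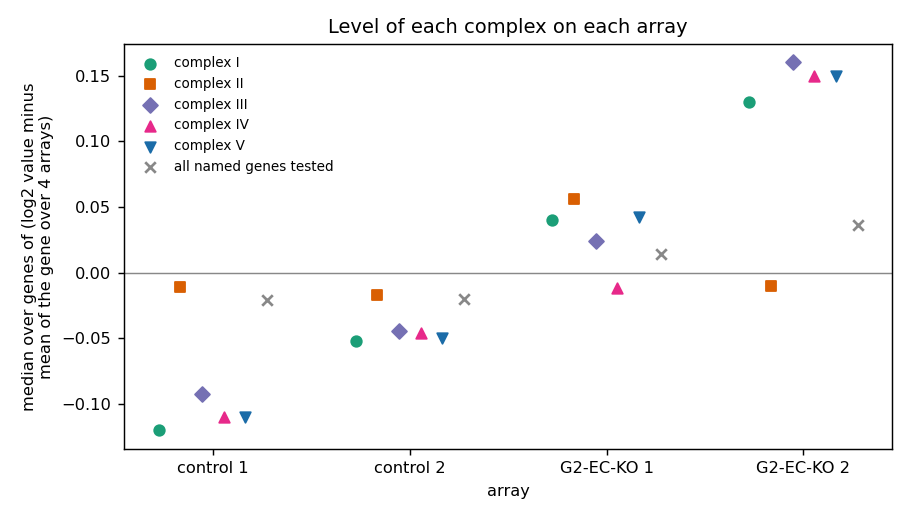
Median over the genes of each complex of the log2 value minus the mean of the gene over the 4 arrays, for each array; grey crosses give the same for all named genes tested. Complexes I, III, IV and V are lowest on control replicate 1 (-0.12 to -0.092) and highest on G2-EC-KO replicate 2 (0.13 to 0.16), while complex II stays between -0.017 and 0.056.

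Complex I had 34 of 37 members higher, with a median log2 change of 0.18. Both G2-EC-KO arrays lay above both control arrays for 28 of 37 (75.7%), against 30.4% of named genes. All 10 Ndufb genes, accessory subunits of the membrane arm, were in that state, with a median of 0.20 and a range of 0.10 to 0.37. Ndufb3 had the highest change of complex I. It read 2.92 and 3.13 in control and 3.29 and 3.50 in G2-EC-KO, so the log2 change was 0.37 (95% confidence interval -0.016 to 0.75, SE 0.14; adjusted p = 0.527 by limma). The groups did not overlap, and the gap between them was smaller than the distance between replicates. Ndufa4, named for complex I and now placed in complex IV, read 3.56 and 3.68 in control and 3.81 and 4.11 in G2-EC-KO (log2 change 0.34, SE 0.15; limma, adjusted p = 0.541). With Ndufa4 counted in complex IV, the medians of complexes I and IV were both 0.17. The brightest complex I probe, that of the accessory subunit Ndufa13, read 5.40 and 5.46 in control and 5.62 and 5.63 in G2-EC-KO (log2 change 0.19, SE 0.11). Here replicates lay close and the groups apart, again without passing (limma, adjusted p = 0.570).

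The 7 nuclear core subunits of complex I, which carry the flavin, the iron-sulfur clusters and the ubiquinone site, had a median change of 0.13, against 0.19 for its 30 accessory subunits. Both G2-EC-KO arrays lay above both control arrays for 3 of the 7 (42.9%) and for 25 of the 30 (83.3%). That order held for 30.4% of named genes and 32.9% of the brighter ones. Ndufv2, a core subunit with an iron-sulfur cluster, read 2.04 and 2.15 in control and 2.28 and 2.32 in G2-EC-KO (log2 change 0.20, SE 0.11). Ndufs3 read 3.08 and 3.33 against 3.33 and 3.43 (0.17, SE 0.14), and its change was 0.048 without control replicate 1 and 0.29 without control replicate 2. Ndufs7 read 3.87 and 3.85 against 3.86 and 4.13 (0.14, SE 0.14), where G2-EC-KO replicate 2 alone stood high. Ndufs8 read 1.73 and 1.82 against 1.92 and 1.89 (0.13, SE 0.11). The flavin subunit Ndufv1 overlapped between groups, with 4.10 and 4.28 against 4.21 and 4.24 (0.037, SE 0.12). So did Ndufs1, the largest subunit, with 3.23 and 3.19 against 3.26 and 3.18 (0.010, SE 0.11). Among accessory subunits, Ndufa7 was lower by a margin far inside its SE, with 4.36 and 4.42 against 4.39 and 4.38 (-0.0067, SE 0.11).

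Complex II, succinate dehydrogenase, differed from the other complexes in its counts, with 2 of 4 members higher and a median log2 change of 0.058. The difference between complexes was not tested, and 4 genes give a coarse median. Sdha, the flavin subunit that oxidises succinate, read 1.70 and 1.68 in control and 1.69 and 1.46 in G2-EC-KO, so the log2 change was -0.12 (95% confidence interval -0.45 to 0.22, SE 0.13; adjusted p = 0.735 by limma). It was the lowest change among all 82 members, with G2-EC-KO replicate 2 alone standing low at this probe. Its second probe, A_51_P410823, read 1.70 and 1.61 in control and 1.55 and 1.43 in G2-EC-KO (-0.17, SE 0.11), where both G2-EC-KO arrays lay below both control arrays. Sdhb, the iron-sulfur subunit, read 2.94 and 3.1 in control and 3.18 and 3.17 in G2-EC-KO (0.15, SE 0.12). Of the membrane anchors, Sdhc read 3.13 and 3.02 against 3.11 and 2.97 (-0.035, SE 0.12), and Sdhd read 3.26 and 3.25 against 3.39 and 3.50 (0.19, SE 0.11; limma, adjusted p = 0.578). The 4 subunits, which assemble together, thus read on both sides of 0. The median was 0.019 without G2-EC-KO replicate 1 and 0.088 without G2-EC-KO replicate 2.

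Complex III had all 8 measured members higher, with a median log2 change of 0.18 and a range of 0.050 to 0.27. In 6 of 8 both G2-EC-KO arrays lay above both control arrays, against 30.4% of named genes and 32.9% of the brighter ones. Uqcrq, an accessory subunit beside cytochrome b, read 4.89 and 5.06 in control and 5.15 and 5.35 in G2-EC-KO (0.27, SE 0.14; limma, adjusted p = 0.554). The small accessory subunit Uqcr11 read 4.36 and 4.56 against 4.61 and 4.78 (0.24, SE 0.13). In both genes the groups were apart by less than the distance between replicates. The core proteins and the Rieske iron-sulfur protein had smaller values. Uqcrc1 read 3.71 and 3.71 against 3.75 and 3.95 (0.13, SE 0.12), Uqcrc2 read 3.86 and 3.91 against 3.95 and 3.98 (0.082, SE 0.11), and the Rieske protein gene Uqcrfs1 read 3.05 and 3.08 against 3.08 and 3.26 (0.11, SE 0.12). The median was 0.11 for these 3 and 0.23 for the 5 accessory subunits. The gene of cytochrome c1, Cyc1, also belongs to complex III but falls outside the name rule, and is counted with the electron carriers below. It read 3.96 and 3.98 in control and 4.01 and 3.96 in G2-EC-KO (0.013, SE 0.11), with the groups overlapping. Uqcrh, the hinge protein, read 6.09 and 6.13 against 6.13 and 6.19 (0.050, SE 0.11). Without G2-EC-KO replicate 2 the median of complex III was 0.10.

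Complex V had 15 of 17 members higher, with a median log2 change of 0.17. Atp5e, the epsilon subunit of the F1 stalk, had the smallest p of all members at the 1 probe that represents each. It read 4.63 and 4.63 in control and 5.05 and 5.11 in G2-EC-KO, a log2 change of 0.44 or 1.36-fold (SE 0.11, 95% confidence interval 0.16 to 0.72; limma, unadjusted p = 0.0103, adjusted p = 0.405). Both G2-EC-KO arrays lay well above both control arrays, and the SD between replicates was 0.0018 in control and 0.044 in G2-EC-KO. The catalytic F1 head did not follow it. Atp5a1, the alpha subunit, read 5.09 and 5.07 in control and 5.02 and 4.92 in G2-EC-KO (-0.11, SE 0.11; limma, adjusted p = 0.705). Atp5b, the catalytic beta subunit, read 6.24 and 6.33 against 6.45 and 6.30 (0.089, SE 0.12), and its other probes gave -0.026 (SE 0.16) and -0.089 (SE 0.18), opposite in sign. Atp5d, the delta subunit, read 3.83 and 3.98 against 3.82 and 3.87 (-0.062, SE 0.12), and Atp5c1, the gamma shaft, read 5.19 and 5.19 against 5.40 and 5.43 (0.23, SE 0.10; limma, adjusted p = 0.548).

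In the membrane part of complex V, the 5 small FO subunits Atp5j2, Atp5k, Atp5l, Atp5md and Atp5mpl had a median of 0.22. In all 5 both G2-EC-KO arrays lay above both control arrays, an order that held for 30.4% of named genes. Atp5j2 read 4.50 and 4.57 in control and 4.71 and 4.89 in G2-EC-KO (0.26, SE 0.12; limma, adjusted p = 0.548). The 4 peripheral stalk genes had a median of 0.17, from 0.033 for Atp5j to 0.25 for Atp5o, the subunit that confers oligomycin sensitivity. The c-ring is made from 3 genes that encode the same mature protein. Atp5g1 read 2.96 and 3.19 against 3.19 and 3.35 (0.19, SE 0.14), Atp5g2 read 4.09 and 4.21 against 4.20 and 4.36 (0.13, SE 0.12), and Atp5g3 read 5.51 and 5.63 against 5.63 and 5.62 (0.060, SE 0.11). The groups overlapped in 3 of these 3 genes. Of 17 members with several probes, 14 had the same sign at every probe, with Atp5b, Ndufa7 and Ndufv3 as the exceptions. The range between probes was widest for Ndufab1, the acyl carrier subunit of complex I, at 0.43. Its dim second probe A_51_P208801 read -2.01 and -2.16 in control and -1.62 and -1.48 in G2-EC-KO (0.54, SE 0.12; limma, unadjusted p = 0.00893, adjusted p = 0.392), beside 0.11 (SE 0.11) at its brighter probe. For Atp5h a second probe gave 0.48 (SE 0.16) beside 0.17 (SE 0.11).

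**Figure D3:**
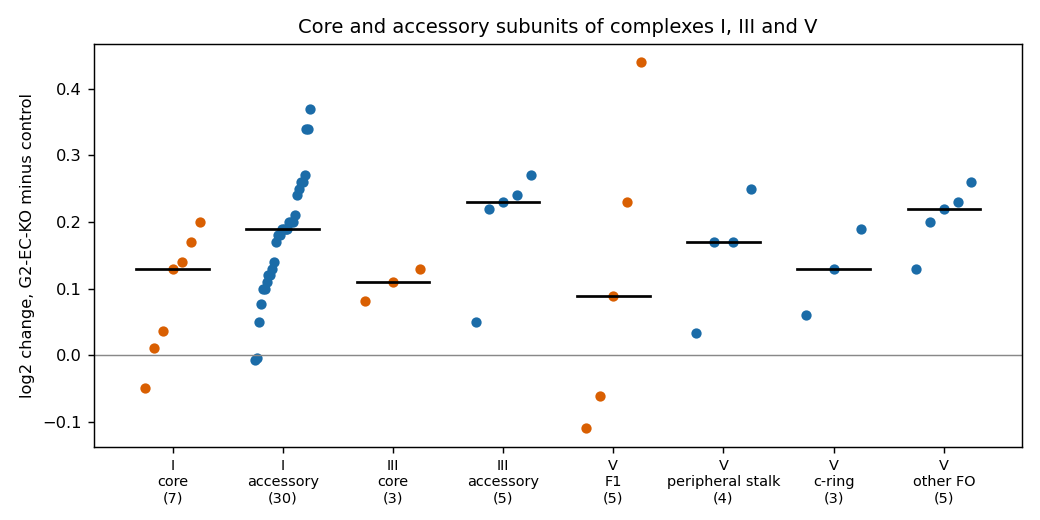
Log2 change (G2-EC-KO minus control) of the genes of complexes I, III and V by role, with the number of genes in brackets. Orange points are core or F1 subunits, blue points accessory, stalk, c-ring or other FO subunits, and black lines are medians, which are 0.13 and 0.19 in complex I, 0.11 and 0.23 in complex III, and 0.089 (F1) and 0.22 (other FO) in complex V.

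The order of roles was followed under the alternatives of scaling, filter, model and array. Of these, 7 change the values of members relative to each other: normexp, quantile normalization, the value table and each array left out. In these 7 the core subunits had the lower median in complexes I and III, and the F1 subunits lay below the small FO subunits in 6 of 7. The exception was the fit without G2-EC-KO replicate 2, with 0.17 for F1 and 0.14 for the small FO subunits. Other probe rules also change the values of members, and the order of roles was not computed under them. The difference between roles was not tested. Across the 82 members, the change was only weakly related to the mean level of the probe (Pearson r = 0.103, Spearman rho = 0.0399, over genes that share the same 4 arrays).

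Complex IV had 13 of 16 members higher, with a median log2 change of 0.17. In complex IV both G2-EC-KO arrays lay above both control arrays for 7 of 16 (43.8%), against 30.4% of named genes and 32.9% of the brighter ones. Its 3 largest values belonged to Cox7a1, Cox8b and Cox6a2, the heart and skeletal muscle isoforms of subunits VIIa, VIII and VIa. Cox7a1, at probe A_51_P148612, read 2.45 and 2.53 in control and 2.58 and 3.48 in G2-EC-KO (0.54, 95% confidence interval -0.30 to 1.37, SE 0.32; adjusted p = 0.584 by limma). Cox8b, at probe A_52_P423814, read 1.55 and 1.84 against 1.72 and 2.52 (0.43, SE 0.30; limma, adjusted p = 0.625). Cox6a2, at probe A_51_P509997, read 3.1 and 3.13 against 3.12 and 3.92 (0.41, SE 0.29; limma, adjusted p = 0.623). In all 3 genes G2-EC-KO replicate 2 stood apart, and G2-EC-KO replicate 1 lay close to the control arrays or between them. The widely expressed isoforms did not show this step. Cox7a2 read 4.74 and 4.80 against 4.92 and 4.99 (0.19, SE 0.11), Cox8a read 5.43 and 5.42 against 5.41 and 5.45 (0.0023, SE 0.10), and Cox6a1 read 6.91 and 6.94 against 7.05 and 7.01 (0.10, SE 0.11).

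The difference of change between heart type and widely expressed isoform was 0.30 for Cox6a2 and Cox6a1, 0.35 for Cox7a1 and Cox7a2 and 0.42 for Cox8b and Cox8a. An exact permutation test (two-sided, 2 against 2 arrays) gave p = 1 for the first and the second pair and 0.667 for the third, where 0.333 is the smallest p the design allows. Among the 8 paralogue pairs compared, Cox4i2 with Cox4i1 (difference -0.17) and Cox7a2l with Cox7a2 (-0.24) were at that smallest p, and the adjusted p was 1 for all 8 (exact permutation test, Benjamini-Hochberg). Without G2-EC-KO replicate 2 the differences were -0.12, -0.063 and 0.039, and without G2-EC-KO replicate 1 they were 0.72, 0.76 and 0.81. They thus rest on 1 array.

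**Figure D4:**
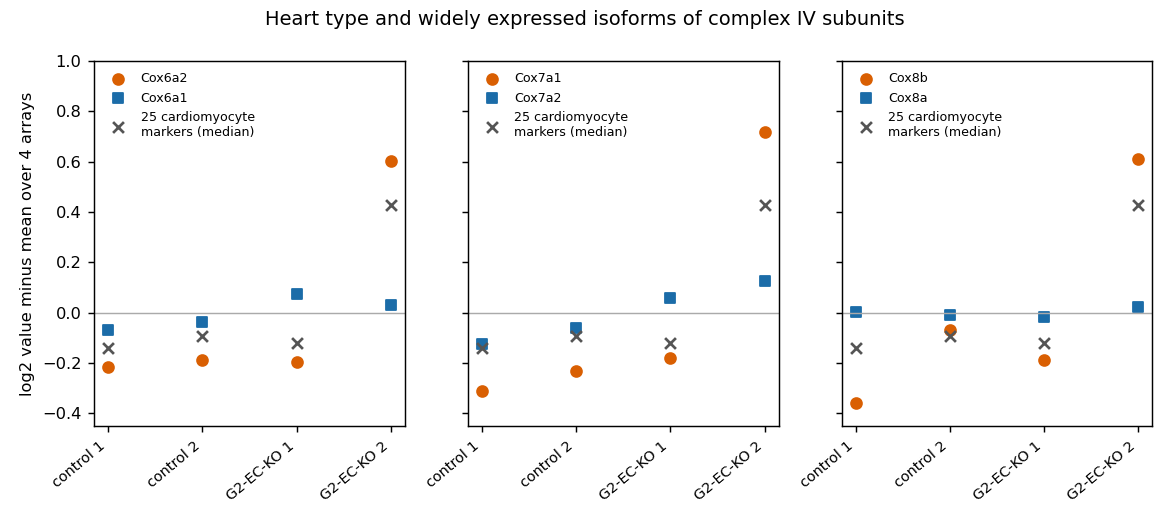
Log2 value minus the mean of the gene over the 4 arrays, for the heart type isoform (orange), the widely expressed isoform (blue) and the median of 25 cardiomyocyte markers (crosses), on each array. The heart type isoforms and the markers stand high on G2-EC-KO replicate 2, where the marker median is 0.43.

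Markers of cardiomyocytes were high on the same array as these isoforms. Of 26 cardiomyocyte markers 26 were well above background on all 4 arrays, so that no marker of the list was at background. Without Cox6a2, which is on that list, 24 of 25 read higher in G2-EC-KO (median log2 change 0.36), and 22 of 25 had their highest value on G2-EC-KO replicate 2. Relative to the mean over arrays their median was -0.14 and -0.092 in control, -0.12 on G2-EC-KO replicate 1 and 0.43 on G2-EC-KO replicate 2. Their summed linear signal was 180 and 182 in control and 187 and 260 in G2-EC-KO. Without G2-EC-KO replicate 2 their median change was 0.049. The part of cardiomyocyte RNA in the values of the respiratory chain was not tested. In such bulk samples, more cells of a type and more RNA per cell cannot be told apart.

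Without the 3 heart type isoforms, 10 of 13 complex IV members read higher, with a median of 0.10, and 69 of 79 members of all complexes, with a median of 0.17. Without G2-EC-KO replicate 2, the median over all 16 complex IV members was 0.042, with 11 of 16 higher, the lowest of the 5 complexes. The other complex IV paralogues lay near 0. Cox4i1 read 5.68 and 5.80 in control and 5.69 and 5.95 in G2-EC-KO (0.080, SE 0.14), and its lung and hypoxia-linked isoform Cox4i2 read -2.98 and -2.90 against -3.16 and -2.90 (-0.089, SE 0.14). Cox6b1 read 1.78 and 1.88 against 1.83 and 1.83 (-0.0029, SE 0.11), and its testis isoform Cox6b2 read -1.78 and -2.05 against -1.88 and -1.78 (0.089, SE 0.14). Cox7a2l, a supercomplex factor related to subunit VIIa, read 3.61 and 3.74 against 3.54 and 3.70 (-0.059, SE 0.12). The groups overlapped in each of these 5 genes. Cox7b, which has a testis partner in Cox7b2, read 3.95 and 3.99 against 4.10 and 4.31 (0.23, SE 0.13; limma, adjusted p = 0.568), with the groups apart.

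Genes that build or serve the complexes were counted beside them, again with 0 past the adjusted threshold in every list (limma). At an unadjusted p under 0.05, the assembly factors had 2 higher and 0 lower, the biogenesis regulators 2 and 2, fatty acid oxidation 0 and 1, and the other 2 lists 0 and 0. Of named genes, 6.13% were higher and 2.06% lower at that p. Of 40 assembly factors, which insert cofactors and subunits, 38 read higher, with a median of 0.19, close to the 0.17 of the subunits. Uqcc2, an assembly factor of complex III, read 2.10 and 2.19 in control and 2.47 and 2.62 in G2-EC-KO (0.40, SE 0.12; limma, adjusted p = 0.468). Timmdc1, an assembly factor of complex I, had a value of 0.73 (SE 0.34) that came mostly from G2-EC-KO replicate 2, at -2.34 against -3.58 and -3.53 in control. On the lower side stood Foxred1 (-0.044, SE 0.15) and Uqcc1 (-0.036, SE 0.12). Of 15 electron carriers and transporters 13 read higher, with a median of 0.12, among them Vdac3, a channel of the outer membrane (0.23, SE 0.11), and Etfa, which feeds electrons from fatty acid oxidation (0.20, SE 0.15). The phosphate carrier Slc25a3 (-0.21, SE 0.12) and the uncoupling protein gene Ucp2 (-0.18, SE 0.13) read lower.

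The pathways that supply the chain with electrons had smaller medians. Of 17 citric acid cycle genes 11 read higher, with a median of 0.082, from the dehydrogenase gene Mdh2 (0.28, SE 0.10) and the ligase subunit gene Suclg1 (0.17, SE 0.11) to the dehydrogenase gene Ogdh (-0.14, SE 0.13). Of 16 fatty acid oxidation genes 7 read higher, with a median of -0.017. Their extremes were the carnitine transferase gene Cpt2 (0.27, SE 0.16) and the isomerase gene Eci1 (0.15, SE 0.11) and, on the lower side, the carnitine carrier Slc25a20 (-0.32, SE 0.12) and the carnitine transferase Cpt1a (-0.28, SE 0.12). Of 20 regulators of mitochondrial biogenesis 11 read higher, with a median of 0.030. The dim receptor gene Ppard, well above background on 2 of 4 arrays, had the lowest value (-0.60, SE 0.21). It read -4.97 and -5.23 in control and -5.46 and -5.95 in G2-EC-KO. Ppard is among the regulators lower at an unadjusted p under 0.05 (limma), so that count rests partly on values near background. The coactivator Ppargc1a read -2.11 and -2.45 in control and -2.64 and -2.78 in G2-EC-KO (-0.42, SE 0.16; limma, adjusted p = 0.517). Its relative Ppargc1b read 0.27 and 0.04 against -0.08 and -0.48 (-0.43, SE 0.19). Tfb1m, a methyltransferase of the mitochondrial ribosome, read -1.63 and -1.69 against -1.25 and -0.98 (0.54, SE 0.14; limma, adjusted p = 0.420), and the dim nuclear receptor gene Esrrb had a value of 0.77 (SE 0.26). These coactivators and most subunits thus lay on opposite sides of 0, each short of the adjusted threshold.

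Markers of other cell types and of proliferation also differed between the arrays. Cell cycle genes had 22 of 24 higher, with a median of 1.07 and a summed signal of 103 and 100 in control and 123 and 123 in G2-EC-KO. Macrophage and monocyte markers had 17 of 17 higher (median 0.33), and were low on control replicate 1, with sums of 14.5 and 21.0 against 22.5 and 20.3. Fibroblast markers had 14 of 16 higher (median 0.17; sums 297 and 318 against 346 and 344). Pericyte and smooth muscle markers had 3 of 12 higher (median -0.13; sums 380 and 343 against 391 and 289). Lymphocyte, granulocyte, erythroid and platelet markers had 9 of 13 higher (median 0.22; sums 99.1 and 82.0 against 163 and 88.1), and endothelial markers 10 of 20 (median 0.0016). In these lists 0 markers passed the adjusted threshold (limma). At an unadjusted p under 0.05, 19 of 24 cell cycle genes were higher, against 6.13% of named genes. So were 2 of 17 macrophage, 2 of 16 fibroblast, 2 of 26 cardiomyocyte and 1 of 20 endothelial markers. Lower were 2 of 20 endothelial markers, against 2.06% of named genes. Among the 2 macrophage markers was Ccr2, which read -7.36 and -5.97 in control and -4.76 and -5.28 in G2-EC-KO. Its control values lay below the lowest well above background on those arrays (-5.474 and -5.728). Ccr2 thus passed the filter only through the group where it is high. All tested markers were well above background on all 4 arrays except 2 of the macrophage and 1 of the lymphocyte to platelet list. The levels of these lists moved with the groups or with single arrays, and their part in the values of the respiratory chain was not tested.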

How the data were processed

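Per the file headers, spots of array design 014868, annotated on mm9, were quantified with Feature Extraction 10.7.3.1 (10.5 in the submitters' processing notes). The deposited intensity had its background subtracted and a spatial trend removed array by array, with no scaling across arrays. The deposited value table equals median spot signal minus local background plus 16, on a linear scale, and served as an alternative. Columns were mapped by sample, with 0 left unmapped.

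Control spots and 87 to 101 outlier-flagged spots per array were left out, and 0 spots were saturated. Log2 values had the 75th percentile of their array subtracted, with spots of 1 probe averaged. Testing required a probe to be well above background on at least 2 of 4 arrays, which left 26893 of 41174 probes, 11 of them with a value missing on some array (no member). Symbols came from RefSeq on GRCm38.p6 by accession, for 26933 probes. Groups were compared with limma 3.58.1 (R 4.3.3; lmFit, eBayes, group alone, 2 residual and 2.58 prior degrees of freedom, two-sided, Benjamini-Hochberg at 0.05 over all probes tested), checked on simulated data. The number of arrays limits precision. Lists are described by counts and medians.

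Members and lists were chosen with earlier results of these data known. Named were the paralogues, core subunits, complex II, and in each complex the brightest member and up to 2 with the highest and lowest changes. Of each pathway list, 2 genes in either direction were named. Ndufb4, Ndufa12, Atp5k, Atp5c1, Atp5h, Atp5j, Atp5l, Atp5md, Atp5mpl, Atp5o, Cox5b, Ndufab1, Ndufv3, Cyc1 and Ppard were named after their values were seen. Alternatives were normexp with an offset of 50 on the median spot signal, quantile and median scaling, other filters, the value table, an intensity trend, a replicate block, another probe rule, another place for Ndufa4 and each array left out. Results of some genes under these rules are not reported here.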

Additional observations from a re-analysis of the deposited data

How the results depend on the processing

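The median change of all members lay between 0.12 and 0.21 under every alternative run, 0 members passed the adjusted threshold under any (smallest adjusted p = 0.142, limma), and 461 of 480 values of named genes kept their direction and their side of the threshold, a count that includes settings of filter, variance model and block that leave a gene's change as it is. Of all probes, 1 was called higher and 0 lower. With normexp 2 were called higher, with no filter, the filter on all 4 arrays, the intensity trend or the replicate block 0, and with 1 array left out 0 to 8; quantile normalization called 1 lower. Members higher at an unadjusted p under 0.05 numbered 5 with normexp (6.1%, against 8.19% of named genes), 2 with the filter on all 4 arrays (2.44%, against 6.19%), 13 with the intensity trend (15.9%, against 7.76%), 2 with the replicate block (2.44%, against 5.94%), and 0 to 10 with 1 array left out (0 to 12.2%, against 3.47% to 11.7%), where the lone array is assumed to vary like the other group. The replicate numbers come from the sample titles, which name no pairing. Over probes, the deviation of replicate 1 from its group mean correlated at 0.0439 between control and G2-EC-KO. The deviation of replicate 2 mirrors it, so this value does not decide whether arrays were paired. With 1 array left out, the median was 0.019 to 0.088 for complex II, 0.10 to 0.25 for complex III and 0.042 to 0.22 for complex IV. The lowest G2-EC-KO minus the highest control level of complex II was 0.0012, against -0.0085 with median centring and -0.020 with quantile normalization. Cox6b1 turned to 0.0056 with normexp and 0.012 with the value table, and Cox8a to -0.0043 with normexp, -0.012 with quantile normalization and -0.0075 with median centring. With 1 array left out, values crossed 0 for Ndufa7 (-0.034 to 0.021), Ndufs1 (-0.032 to 0.052), Ndufv1 (-0.051 to 0.12), Sdhc (-0.11 to 0.039), Cox4i1 (-0.046 to 0.21), Cox4i2 (-0.22 to 0.044), Cox6b1 (-0.052 to 0.046), Cox6b2 (-0.046 to 0.22), Cox7a2l (-0.14 to 0.023), Cox8a (-0.017 to 0.021) and Atp5d (-0.14 to 0.014). So did the differences of Cox6a2 and Cox6a1 (-0.12 to 0.72) and of Cox7a1 and Cox7a2 (-0.063 to 0.76). Leaving out Atp5s, Atp5sl and the inhibitor from complex V was not run, since none of them is among its 17 members. The cause of these shifts was not tested. With 2 arrays per group, small changes were not detectable.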
